A study of Mus musculus with 30 samples.

Results

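Unnamed assembled transcript loci are stretches of the genome to which transcript assembly gave a model but no gene name. In this series they carry assembly identifiers beginning with MSTRG, and every transcript of the locus lacks a name. Of 3361 such loci, 1117 reached 1 FPKM or more in at least 5 of the 30 libraries and are described here; they were thus selected on their measured FPKM, in addition to the missing name. FPKM, fragments per kilobase of transcript scaled to sequencing depth, is a level corrected for transcript length and library size. The 1117 loci held 1336 transcripts and stood among 14626 gene rows that passed the same filter, 12969 of them named. Because the filter uses measured levels, a locus that passed through its high group alone had to differ between groups. MSTRG.8005, MSTRG.22212 and MSTRG.8401 passed in that way, all 3 through the 5 QpE libraries of 12 days, and are given no test of QpE there. Another 64 loci reached 1 FPKM in libraries of 2 groups only. For these, and for any locus that passed mainly through libraries of 1 time, the filter favoured a difference from the other groups. Calls of such a difference are not independent of the selection. At the threshold, 126 loci reached 1 FPKM in exactly 5 libraries, with a median fifth-highest value of 1.05 FPKM. Another 197 loci reached it in 4 libraries and were left out, with a median fifth-highest value of 0.921 FPKM.

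The libraries came from 3T3-L1, mouse embryo fibroblasts that become fat-storing cells under adipogenic hormones. There were 6 groups of 5 cultures: Control and quizalofop-p-ethyl (QpE, a herbicide) at 50 µM, each labelled 6 h, 24 h and 12 days. All 6 groups shared the differentiation medium with 3-isobutyl-1-methylxanthine, which raises cAMP, and insulin; the labels state no solvent for the controls. The exposure in the protocol text is shorter than 12 days; groups are named here by their labels. The cells are 1 purchased line. The study asked which transcripts QpE alters while these cells become fat cells. Replicates are numbered 1 to 5 within a group, but the labels do not say that they were independent cultures, so p-values measure the spread between these samples.

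All 6 fat-cell markers and all 6 fibroblast markers had a group median of at least 1 FPKM in every group. Of other cell types, Ptprc, Adgre1 and Itgam (macrophages), Cdh5, Kdr and Tek (endothelium), Epcam and Cdh1 (epithelium) and Myod1, Myog and Ckm (skeletal muscle) were below 0.1 FPKM in every library. The rest of those lists was not silent at 12 days. The 4 epithelial markers, Krt8 and Krt18 among them, summed to at most 0.0915 FPKM in the 12 day controls and to 0.274 to 2.59 FPKM with QpE. The 4 muscle markers summed to 4.64 to 9.56 FPKM in those controls and to 8.76 to 18.4 FPKM with QpE, and the 5 macrophage markers to 1.09 to 3.71 and 2.08 to 5.37 FPKM, with 1 macrophage marker at a median of at least 1 FPKM in both groups. Their part in the differences at the unnamed loci was not tested. The summed level of the fat-cell markers ran from 75.1 to 389 FPKM at 6 h and 24 h. At 12 days it was 4915, 4064, 1021, 852 and 5309 FPKM in control replicates 1 to 5 and 7268, 7153, 3141, 3184 and 6711 FPKM in the QpE replicates. Replicates 3 and 4 were thus the lowest of both 12 day groups. Fibroblast markers summed to 1999 to 3236 FPKM in the 12 day controls and to 278 to 2087 FPKM with QpE. In bulk RNA, a change in the number of cells of a type and a change in RNA per cell cannot be told apart. Estimated depth was 9.51e+06 to 1.75e+07 read pairs per library.

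As background, an assembler builds a model wherever reads pile up and then looks for a reference gene that matches it. A model stays without a name when the reference in use has no gene there, or when it lies beside, inside or opposite a gene without sharing its structure. Several kinds of RNA are known to end up in this class: transcripts that run on past a gene's 3′ end, antisense and promoter-divergent noncoding RNAs, intron-derived RNA, and processed pseudogenes, which are copies of spliced mRNAs inserted elsewhere in the genome. A single-exon model has no splice sites, from whose bases an assembler can otherwise read the strand.

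Both kinds of sequence below show what the unnamed loci are made of, ahead of their values. The first are loci that resemble an mRNA of another gene. MSTRG.9114, the most abundant of these, lies within the span of Kalrn over the annotated processed pseudogene Gm49594 and closely matches Rpl15, which encodes a protein of the large ribosomal subunit. MSTRG.10376, which rose with QpE at 12 days, lies over the processed pseudogene AC154457.3 inside the span of Tmem232 and matches Mrps10, which encodes a protein of the small mitochondrial ribosomal subunit. The 240 bases of each locus (chr16:34007218-34007457, minus strand, and chr17:65438438-65438677, minus strand, both GRCm38) are set above the same bases of the coding sequence of the matching gene. Capitals mark every base that differs within the pair, 1 for Rpl15 and 4 for Mrps10.
MSTRG.9114: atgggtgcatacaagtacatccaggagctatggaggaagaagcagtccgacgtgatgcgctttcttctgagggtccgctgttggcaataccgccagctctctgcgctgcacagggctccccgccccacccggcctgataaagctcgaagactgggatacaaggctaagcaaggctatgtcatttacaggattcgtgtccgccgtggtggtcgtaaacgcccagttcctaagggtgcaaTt
Rpl15: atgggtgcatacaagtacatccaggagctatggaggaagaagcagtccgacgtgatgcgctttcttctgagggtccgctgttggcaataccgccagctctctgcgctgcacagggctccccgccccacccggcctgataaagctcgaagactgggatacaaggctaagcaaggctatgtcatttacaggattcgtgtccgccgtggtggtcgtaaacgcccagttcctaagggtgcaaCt
MSTRG.10376: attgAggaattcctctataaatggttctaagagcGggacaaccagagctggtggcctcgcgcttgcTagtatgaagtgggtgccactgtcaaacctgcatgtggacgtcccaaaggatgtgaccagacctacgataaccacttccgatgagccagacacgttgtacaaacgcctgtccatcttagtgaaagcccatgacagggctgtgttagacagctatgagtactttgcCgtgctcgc
Mrps10: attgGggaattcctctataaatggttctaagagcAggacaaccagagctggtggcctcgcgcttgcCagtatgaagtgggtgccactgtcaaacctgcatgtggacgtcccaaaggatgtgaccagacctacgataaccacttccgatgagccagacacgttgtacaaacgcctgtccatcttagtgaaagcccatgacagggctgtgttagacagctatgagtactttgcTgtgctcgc
Over their whole aligned lengths of 615 and 570 bases, identity was 99.8% for MSTRG.9114 and 98.4% for MSTRG.10376. The pairs differed at 1 and 9 bases over these lengths. A read of 75 bases thus holds few or none of the differences, so the split of reads between the members is uncertain.

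The second kind are loci that begin in a window before a RefSeq start site of a named gene and run away from that start site. The 4 shown were called in at least 1 comparison and their windows hold 10 or fewer annotated exon bases. Each window is the 250 bases before a RefSeq start site (GRCm38), written in the direction of the named gene, and capitals mark bases covered by the unnamed locus, which lies on the opposite strand. Fgfrl1, at chr5:108693979-108694228 on the plus strand, encodes a fibroblast growth factor receptor-like protein. Tbc1d22a, at chr15:86214209-86214458 on the plus strand, encodes a TBC domain protein. Enah, at chr1:182019981-182020230 on the minus strand, encodes an actin-regulating protein. Gcdh, at chr8:84893922-84894171 on the minus strand, encodes a mitochondrial dehydrogenase of lysine breakdown.
MSTRG.17837 before Fgfrl1: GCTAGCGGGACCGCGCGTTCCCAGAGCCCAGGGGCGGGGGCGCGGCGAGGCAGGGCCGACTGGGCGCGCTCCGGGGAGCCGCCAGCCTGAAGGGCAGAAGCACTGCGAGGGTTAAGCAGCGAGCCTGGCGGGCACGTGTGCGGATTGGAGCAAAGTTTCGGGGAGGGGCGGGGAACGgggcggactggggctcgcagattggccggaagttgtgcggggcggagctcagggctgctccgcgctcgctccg
MSTRG.8456 before Tbc1d22a: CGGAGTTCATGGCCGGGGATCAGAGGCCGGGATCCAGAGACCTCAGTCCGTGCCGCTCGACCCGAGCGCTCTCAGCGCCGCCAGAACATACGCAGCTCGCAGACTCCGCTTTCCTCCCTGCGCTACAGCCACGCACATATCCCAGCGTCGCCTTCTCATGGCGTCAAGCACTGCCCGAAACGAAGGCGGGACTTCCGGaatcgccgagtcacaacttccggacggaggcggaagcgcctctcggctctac
MSTRG.1545 before Enah: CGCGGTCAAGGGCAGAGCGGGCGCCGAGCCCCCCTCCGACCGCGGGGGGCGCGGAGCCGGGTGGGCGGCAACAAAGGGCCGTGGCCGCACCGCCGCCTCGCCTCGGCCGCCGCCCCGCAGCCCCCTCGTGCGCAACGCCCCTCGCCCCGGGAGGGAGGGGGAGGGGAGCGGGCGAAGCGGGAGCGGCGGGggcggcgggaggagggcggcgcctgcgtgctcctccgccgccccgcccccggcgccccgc
MSTRG.22591 before Gcdh: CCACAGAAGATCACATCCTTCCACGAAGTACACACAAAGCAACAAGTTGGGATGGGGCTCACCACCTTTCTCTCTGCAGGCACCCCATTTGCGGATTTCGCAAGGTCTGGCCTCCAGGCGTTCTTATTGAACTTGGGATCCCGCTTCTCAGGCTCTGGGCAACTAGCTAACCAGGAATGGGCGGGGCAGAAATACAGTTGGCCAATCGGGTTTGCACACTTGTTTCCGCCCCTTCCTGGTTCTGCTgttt
The named gene's start site follows the last base printed. The capitals therefore end where the unnamed locus begins.

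Most of the loci were short, unspliced and weakly expressed. Of the 1117, 942 (84.3%) had a single exon and 724 (64.8%) had no strand; every one of the 724 was single-exon. Another 177 were on the plus strand and 216 on the minus strand. The longest transcript of a locus had a median length of 564 bases (range 200 to 9455). Mean level over the 30 libraries had a median of 0.989 FPKM, against 10.3 FPKM for named rows, and 564 loci averaged below 1 FPKM. The median locus was supported by 7.33 read pairs in a library, and 446 loci by fewer than 5. On simulated data with the spread of QpE at 12 days, 48% of unnamed loci changed by 1 log2 unit were recovered, beside 66.3% of other rows.

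A few loci were abundant: 84 averaged 10 FPKM or more and 20 averaged 100 FPKM or more. The 6 most abundant held 46.9% of the FPKM of all 1117. Together the 1117 loci held between 2.08% and 5.58% of a library's FPKM total, with a median of 2.85%. In all 30 libraries 192 loci reached 1 FPKM, and 533 reached it in at least 1 library of every group. An exact 0 in at least 1 library occurred in 523 loci; in 75 of them a group with a median of at least 2 FPKM had such a 0, which may be a failed estimate and not missing RNA.

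Position against named genes was strongly one-sided. A named span was overlapped by 352 loci, 509 lay within 5 kb of one without overlap, 254 lay farther away and 2 had no named row on their sequence. Of the 509 near loci, 365 were on the 3′ side of the named gene, at a median gap of 393 bases, and 144 were on the 5′ side, at a median gap of 365.5 bases. Among near loci whose strand was known, 94 lay downstream on the same strand as the gene, 42 upstream on the same strand, 30 ran divergently from its 5′ side and 14 ran towards its 3′ side from beyond. Loci without strand contributed 257 on the 3′ side and 72 on the 5′ side. Overlapping loci comprised 191 without strand, 112 on the opposite strand and 49 on the same strand. The library kit keeps strand, but whether strand was used in assembly and counting is not stated, so reads of an overlapping locus and of its gene cannot be told apart.

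Set against the GENCODE M21 annotation, 646 loci (57.8%) touched no annotated gene and 263 (23.5%) lay in introns only. Exons were touched on the same strand by 56 loci, on the opposite strand by 56, and by 96 loci whose strand was unknown. Of the 152 loci over an exon on the same or an unknown strand, 90 lay over a pseudogene and 21 over a long noncoding RNA. RefSeq gene spans overlapped 669 loci (59.9%), and 388 loci (34.7%) overlapped no gene of either annotation.

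The chromosomes were not covered evenly. Chromosomes 15 to 19 held 317 loci, or 13.9 per 100 named rows, against 794 loci and 7.46 per 100 on the other chromosomes. Of the 90 loci over pseudogene exons, 84 were on chromosomes 15 to 19. The deposited table listed 68.3% of GENCODE M21 transcripts by identifier on chromosomes 15 to 19, and 47.6% of the pseudogene transcripts there, against 99.5% and 99.7% on chromosomes 1 to 14, X and Y. Some of the loci without a name on chromosomes 15 to 19 are thus annotated genes that the table does not list, such as Gm49594 and AC154457.3 above.

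Loci that lie over a single-exon annotated transcript could be compared with the genes they resemble. There were 91 such loci, and 89 of them matched a transcript of another gene. The bases compared were those of the annotated transcript within the span of the locus, and for a spliced locus these can lie outside its exons. MSTRG.8571 and MSTRG.8572, with longest transcripts of 266 and 224 bases, were both given the same 1116 bases. Some matches were partial, with 4.32% of the compared bases aligned for MSTRG.9735 and 5.84% for MSTRG.8956. Of the 89, 78 lay over a processed pseudogene and 80 were on chromosomes 15 to 19. Identity ranged from 67.6% to 99.8% with a median of 97.7%; 36 were at 98% or more and none was identical over its aligned length. A ribosomal protein gene was the closest match of 25 loci. The level of the locus was under 10% of its closest gene's in 63 of the 89 and above it in 9. Most genes so exceeded were listed at or near 0 FPKM. Vmn1r188 and Olfr704 were at 0 FPKM and were matched over a short stretch, 27.8% and 5.84% of the bases compared. Gm10324, 5730507C01Rik, Rpl21 and Gm10479 averaged 0.00675 to 0.366 FPKM. Rpl21 is a ribosomal protein gene, and whether its listed level leaves out reads was not tested. MSTRG.9114 averaged 216 FPKM against 143 FPKM for Rpl15, and MSTRG.8176, which matches Rpl17 at 99.1%, averaged 65.3 FPKM against 6.07 FPKM for that gene. Both loci were therefore listed above the gene they resemble, with the uncertainty of the split noted above. Rpl17 is itself a gene of chromosomes 15 to 19, where the table listed 72.2% of protein-coding transcripts. Whether its level leaves out unlisted transcripts was not tested.

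**Figure D1:**
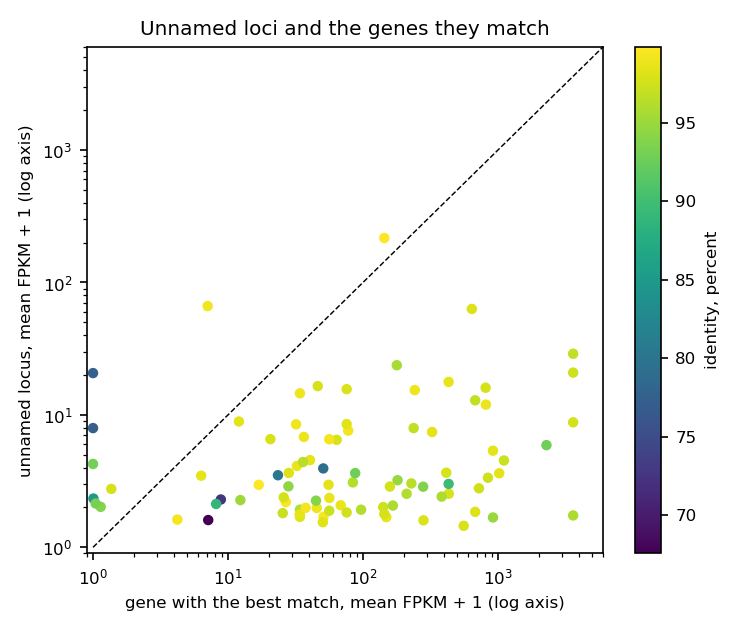
Mean level over the 30 libraries of 89 unnamed loci against that of the gene each matches best, both as FPKM + 1 on log axes, with the percent identity as colour. The dashed line marks equal levels. Above it lie 9 loci, MSTRG.9114 and MSTRG.8176 among them, and the others match genes at or near 0 FPKM.

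Of the 393 loci with a known strand, 26 began near a RefSeq start site on the opposite strand of the gene and 23 on the same strand, at most 250 bases before the start or 47 bases past it. The start was passed by 2 of the 26 and 7 of the 23. The 250 bases before the start had for the 26 a median GC content of 58.8% and a median of 15.5 CpG dinucleotides, against 52.4% and 6 over all 32851 windows. The motif GGGCGG, sought on both strands, was in 15 of the 26 windows, against 32.7% of all windows. CCAAT was in 9 of 26, against 33.8%, and TATAAA in 1 of 26, against 12.4%. None of the 3 motifs contains another. These are descriptions of the letters in the windows and were given no test.

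Differences between groups were tested with limma on log2(FPKM + 1), with Benjamini-Hochberg adjustment over all 14626 rows. A row with an adjusted p below 0.05 is said to be called, or to have risen or fallen. Log2 differences carry the added 1 FPKM, which shrinks those of low loci. The widest differences came with time in the controls. Between 12 days and 24 h, 175 of the 1117 loci were called (74 higher, 101 lower), which is 15.7%, beside 34% of all rows. Between 24 h and 6 h, 99 were called (59 higher, 40 lower), 8.86% beside 22.5%. With QpE at 12 days, 41 were called (14 higher, 27 lower), 3.67% beside 12.2% of all rows; 5.06% of all rows were higher and 7.17% lower. At an unadjusted p under 0.05 there were 180 loci in the control course to 24 h and 267 in that to 12 days, beside 35% and 43.8% of all rows. The median log2 difference of the 1117 loci was -0.09, 0.02 and -0.04 in these 3 comparisons, beside -0.08, 0.00 and 0.00 over all rows.

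With QpE at 6 h and at 24 h no unnamed locus was called by limma, beside 0.00684% and 0% of all rows. At an unadjusted p under 0.05 there were 49 and 81 of them, or 4.39% and 7.25%, beside 2.75% and 8.79% of all rows. No other tool was run on these contrasts; with replicate blocks the adjusted count was also 0 at both times. Leaving out control replicate 1 at 24 h gave 1 called locus. MSTRG.9366, on chromosome 16, had the smallest p at 6 h. It was at 0.840, 0.695, 0.486, 0.860 and 0.387 FPKM in the controls and at 1.37, 1.42, 1.43, 2.13 and 2.16 FPKM with QpE. The groups did not overlap, as at 0.362% of all rows at 6 h and 1.91% at 24 h, but the log2 difference of 0.71 had an adjusted p of 1. At 24 h MSTRG.17116, in an intron of Mrpl33, was at 0.940, 1.01, 1.26, 0.982 and 0.695 FPKM in the controls and at 0.399, 0.134, 0.272, 0.140 and 0.366 FPKM with QpE. The log2 difference was -0.65 with an adjusted p of 0.203, and the medians rest on 3.69 and 1.03 read pairs.

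The lower share of called loci was also seen within ranges of mean FPKM. These ranges match neither length nor read number, and the highest has no upper bound. The loci had a median length of 564 bases, and at equal FPKM a shorter transcript rests on fewer reads. Among rows averaging 5 FPKM or more, 10 of 144 unnamed loci (6.94%) and 15.5% of 8936 named rows were called with QpE at 12 days. In the same range 22 loci (15.3%) and 41.1% of named rows were called between control 12 days and 24 h. Below 1 FPKM, the shares in that comparison were 13.5% of 564 loci and 16.5% of 789 named rows. No test of these differences in share was made.

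**Figure D2:**
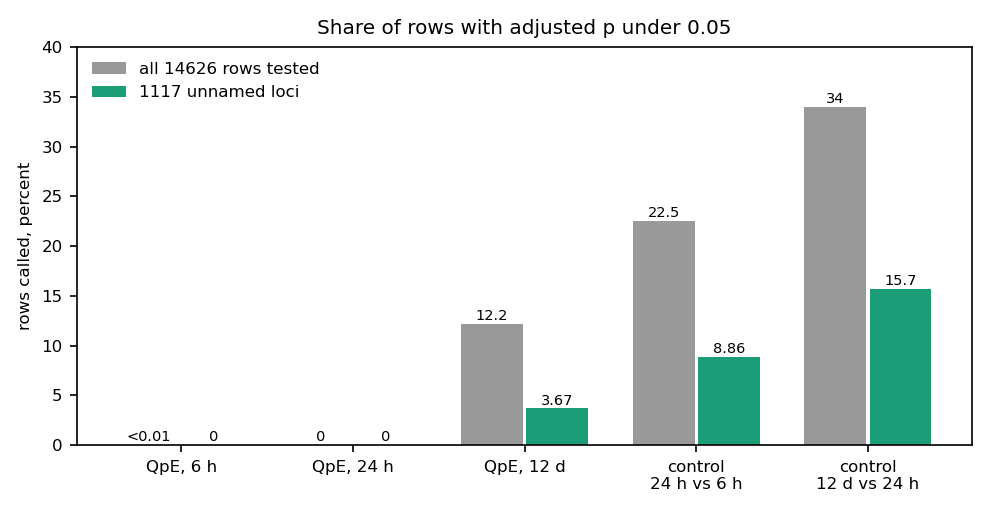
Percent of rows called in each comparison, for all 14626 rows tested (grey) and the 1117 unnamed loci (green). With QpE at 12 days the bars stand at 12.2% and 3.67%, and both are near 0 with QpE at 6 h and 24 h.

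The late course in the controls gave the largest single difference. MSTRG.3932 is a spliced locus of 11 transcripts at chr11:86811742-86816395 (GRCm38, plus strand) in which neither annotation has a gene. It begins 3996 bases from the 5′ end of Dhx40, an RNA helicase gene on the other strand. It was at 2.21, 1.89, 2.01, 3.4 and 1.49 FPKM in the 6 h controls, at 4.77, 5.32, 1.62, 0.471 and 2.14 FPKM at 24 h and at 121, 102, 19.3, 11.7 and 86.4 FPKM at 12 days. All 12 day controls were above all earlier ones, and replicates 3 and 4 were the lowest of their group, as they were for the fat-cell markers. The rise from 24 h was 3.86 ± 0.68 on the log2 scale (SE, n = 5 per group; limma adjusted p = 0.00180). Dhx40 differed by 0.13 (adjusted p = 0.318), and the locus minus Dhx40 by 3.72 (adjusted p = 0.00168). The call was lost when only the most abundant transcript of each row was used (log2 1.78).

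With QpE at 12 days MSTRG.3932 stood at 177, 146, 53.3, 47.8 and 125 FPKM. Each value was above that of the control with the same number, while the groups overlapped. The log2 difference of 0.99 ± 0.68 was not called (95% interval -0.52 to 2.50; adjusted p = 0.381). With the replicate number as a block, a pairing inferred from these data and not given by the labels, the limma adjusted p was 0.0355. The part of the differing fat-cell marker levels in these values was not tested.

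MSTRG.4587 is a single-exon locus of unknown strand at chr11:120499739-120500949, 552 bases past the 3′ end of the deposited span of Slc25a10. It overlaps the RefSeq span of Slc25a10, the mitochondrial dicarboxylate carrier gene. It was at 0.634, 0.669, 0.625, 0.179 and 0.601 FPKM in the 24 h controls and at 11, 8.31, 2.96, 2.79 and 8.55 FPKM at 12 days. The groups did not overlap, and replicates 3 and 4 were again lowest at 12 days. It rose by 2.18 ± 0.33 (adjusted p = 6.8e-04), beside a rise of 1.97 for Slc25a10 (adjusted p = 0.00379). All 24 h controls of the locus were below 1 FPKM and all 12 day controls above it. The filter thus favoured this rise, which is not independent of the selection. With QpE it stood at 14.4, 12.4, 6.71, 6.74 and 18.1 FPKM at 12 days, a difference of 0.77 with adjusted p = 0.230, or 0.0196 with the block.

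Of the other named rises between 24 h and 12 days, MSTRG.1128 and MSTRG.11182 had no named row within 5 kb that passed the filter. MSTRG.1128, within the RefSeq noncoding gene Gm41965 on chromosome 1, was listed at 0 in all 10 libraries of 6 h. In the 24 h controls it was at 0.331, 0.490, 0.132, 0 and 0.298 FPKM and at 12 days at 4.41, 5.05, 2.63, 0.729 and 3.67 FPKM. It rose by 1.67 ± 0.31 (adjusted p = 0.00218). MSTRG.19228, a locus of 250 bases on chromosome 6, rose by 1.58 (adjusted p = 5.5e-04). Pcgf1, 981 bases away, differed by -0.09, and the locus minus Pcgf1 by 1.66 (adjusted p = 0.0674). MSTRG.11182 on chromosome 18 rose by 1.45 (adjusted p = 0.0288), a call that was lost in 9 settings. It was at 0.391 and 0.281 FPKM in control replicates 3 and 4 and at 3.34 to 5.00 FPKM in the others at 12 days. Its 24 h controls held 2.95 to 18.3 read pairs, against 255 to 461 in control replicates 1, 2 and 5 of 12 days. The filter favours a locus with such high 12 day values, so this rise is not independent of the selection. The same holds for the rise of MSTRG.1128, whose 24 h controls were all below 1 FPKM.

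Among the falls, MSTRG.10021 went against its neighbour. It lies at chr17:34996610-35000212 on the minus strand, within the RefSeq protein-coding gene D17H6S56E-5, and runs divergently from Vars, the valyl-tRNA synthetase gene, 775 bases away. It was at 12.6, 13.7, 12.7, 13.0 and 17.6 FPKM in the 6 h controls, at 20.7, 20.7, 25.6, 30.9 and 24.6 FPKM at 24 h and at 9.50, 10.6, 7.40, 7.15 and 10.0 FPKM at 12 days. No group overlapped another. The locus rose by 0.77 (adjusted p = 0.00207) and then fell by 1.36 ± 0.14 (adjusted p = 7.3e-05). Vars fell by 0.38 in the first step (adjusted p = 4.8e-04) and differed by 0.09 in the second (adjusted p = 0.281). The locus minus Vars differed by -1.45 in the second step (adjusted p = 9.5e-05).

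MSTRG.1039 also moved against the gene it adjoins, Cyb5r1, a cytochrome b5 reductase gene whose 5′ end is 83 bases away. It was at 0.883, 0.848, 1.31, 1.11 and 2.09 FPKM in the 6 h controls and at 3.4, 2.75, 2.74, 3.53 and 3.5 FPKM at 24 h. The groups did not overlap. It rose by 0.92 (adjusted p = 0.00216) and then fell by 0.90 between 24 h and 12 days (adjusted p = 0.00181), while Cyb5r1 rose by 0.99 in the second step. The locus minus Cyb5r1 differed by -1.90 (adjusted p = 1.4e-04).

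Of the other falls, 2 lay beside genes that fell. MSTRG.17153 lies opposite Tacc3, whose protein acts at the mitotic spindle, and MSTRG.17071 lies 1931 bases past the 3′ end of Cenpa, which encodes the centromeric histone. MSTRG.17153 was at 5.05, 9.32, 5.70, 4.57 and 8.04 FPKM in the 24 h controls and at 3.22, 2.77, 0.385, 0.460 and 2.99 FPKM at 12 days. MSTRG.17071 was at 3.44, 3.14, 3.22, 3.77 and 4.34 FPKM and then at 1.25, 1.43, 0.588, 0.562 and 1.04 FPKM. Neither locus overlapped between the groups. They fell by 1.47 (adjusted p = 0.0103) and 1.23 (adjusted p = 1.9e-04), beside falls of 1.54 for Tacc3 and 1.54 for Cenpa. Neither locus differed from its gene by the test of the difference, with values of 0.07 (adjusted p = 0.892) and 0.31 (adjusted p = 0.150). MSTRG.11963 on chromosome 2 and MSTRG.20113 on chromosome 7 fell by 1.51 and 1.11, and neither had a named row within 5 kb that passed the filter.

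In the early course of the controls, from 6 h to 24 h, the loci named for the largest rises lay in different positions to genes. MSTRG.16737, which overlaps the start of Smim1 on the opposite strand and reaches into Ccdc27, was at 4.47, 4.75, 1.99, 2.22 and 6.01 FPKM at 6 h and at 9.07, 15.3, 11.3, 7.42 and 13.7 FPKM at 24 h. It rose by 1.38 ± 0.27 (adjusted p = 0.00544), and Smim1, which encodes a small membrane protein, rose by 0.75. MSTRG.19356, 1411 bases past the end of the prokineticin receptor gene Prokr1 on its strand, rose by 1.25 (adjusted p = 0.0105) and Prokr1 by 1.90. MSTRG.17342 on chromosome 5, within the RefSeq noncoding gene Gm30178, rose by 1.31 (adjusted p = 4.9e-04), from a highest value of 0.432 FPKM to a lowest of 1.36 FPKM. MSTRG.17878, opposite Noc4l, rose by 1.57 (adjusted p = 4.6e-04), but its most abundant transcript alone differed by -0.01.

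The early falls included a gene-linked locus and 4 loci far from any tested gene. MSTRG.1376, of 6 transcripts, overlaps the 3′ end of Uap1 on the opposite strand; Uap1 encodes an enzyme that makes UDP-N-acetylglucosamine. It was at 9.15, 8.07, 14.6, 16.8 and 5.79 FPKM at 6 h and at 2.89, 2.51, 3.61, 3.90 and 3.87 FPKM at 24 h, with no overlap. It fell by 1.37 (adjusted p = 0.00359) beside a fall of 1.26 for Uap1. MSTRG.25287 and MSTRG.25293, 2 spliced loci of the X chromosome on opposite strands, fell by 1.54 and 1.20, MSTRG.6559 on chromosome 13 by 1.31 and MSTRG.19851 on chromosome 6 by 1.23. MSTRG.25287 had 3.18 to 8.34 FPKM at 6 h and 0.592 to 1.39 FPKM at 24 h.

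At 12 days 14 loci were called higher with QpE and 27 lower; the 14 include MSTRG.8005 and MSTRG.22212, which the filter selected through this group. MSTRG.8005 was the furthest apart among those that met the rule for naming. It is a spliced locus at chr15:36867743-36883281 on the plus strand, opposite the noncoding gene Gm10384, whose row did not pass the filter, and it also overlaps the RefSeq noncoding gene Gm41299. It was at 0.469, 0.398, 0.135, 0.433 and 0.265 FPKM in the controls and at 2.43, 2.96, 1.61, 1.99 and 3.28 FPKM with QpE. Only the 5 QpE libraries reached 1 FPKM, so the locus passed the filter through them and had to be higher there. The log2 difference of 1.35 ± 0.16 (SE, n = 5) is therefore a description with no test, on a median of 3.00 read pairs in the controls and 18.7 with QpE. In the 20 libraries of 6 h and 24 h its highest value was 0.244 FPKM. In the test of the QpE difference at 12 days against that at 24 h, 2 of the 1117 loci were called, MSTRG.8005 and MSTRG.23049, beside 0.957% of all rows (0.28% higher); the selection built in the first of these as well. Each of the other 11 loci named for QpE at 12 days lost its call under at least 1 alternative. MSTRG.10376 lost it in 11 settings, MSTRG.23703 and MSTRG.17837 in 9 each, and the rest in 1 to 3.

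MSTRG.23703 lies at chr9:48651797-48652492, 1805 bases past the 3′ end of the deposited span of Zbtb16. It overlaps the RefSeq span of Zbtb16, a zinc finger transcription factor gene. It was at 0.820, 0.565, 0.874, 0.696 and 1.11 FPKM in the controls and at 1.81, 4.09, 2.39, 1.47 and 6.19 FPKM with QpE, without overlap. It rose by 1.10 ± 0.27 (adjusted p = 0.0288), and Zbtb16 rose by 1.72 (adjusted p = 0.0137). MSTRG.14264 lies 724 bases downstream of the deposited span of the pseudogene Gm5540 on the same strand of chromosome 3. It overlaps the RefSeq span of Gm5540. It was at 6.29, 8.90, 6.46, 8.28 and 6.33 FPKM in the controls and at 14.8, 14.9, 13.4, 14.6 and 23.3 FPKM with QpE. It rose by 1.04 ± 0.16 (adjusted p = 0.00966), and Gm5540 rose by 0.96 (adjusted p = 0.0274). Neither locus differed from its neighbour by the test of the difference (adjusted p = 0.0979 and 0.853).

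Rises were also seen at 2 loci that resemble genes of mitochondrial proteins. MSTRG.10376, whose sequence is given above, was at 7.22, 8.50, 8.39, 8.62 and 9.47 FPKM in the controls and at 10.1, 9.89, 15, 12.7 and 15.5 FPKM with QpE. The groups did not overlap, and it rose by 0.51 ± 0.14 (adjusted p = 0.0393). Mrps10 itself differed by 0.71 (adjusted p = 0.106). MSTRG.10944, on chromosome 18, matches Hspe1, the mitochondrial chaperonin gene, at 99.0% over 515 bases. It was at 17.3, 14.3, 14, 13.9 and 12.5 FPKM in the controls and at 18.9, 21.6, 35.2, 30.2 and 24.8 FPKM with QpE. It rose by 0.79 (adjusted p = 0.0166), and Hspe1 rose by 0.76 (adjusted p = 0.0210), from 251 ± 27 to 433 ± 101 FPKM (SD, n = 5). Reads of Hspe1 and of the locus can be exchanged in counting. MSTRG.946, inside Zranb3 and over the RefSeq pseudogene Gm8283, rose by 0.68 (adjusted p = 0.0203), while Zranb3 differed by -0.02.

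The largest falls with QpE were at MSTRG.9536 and MSTRG.9494 on chromosome 17. MSTRG.9536 lies in an intron of Airn, the noncoding RNA that silences the imprinted Igf2r, on the same strand at chr17:12817863-12818562. It was at 3.45, 3.42, 1.26, 2.98 and 2.90 FPKM in the controls and at 1.23, 1.03, 0.204, 0 and 0.118 FPKM with QpE. The groups were separated by a narrow margin, between control replicate 3 and QpE replicate 1. It fell by 1.36 ± 0.27 (adjusted p = 0.0162), and Airn fell by 0.94 (adjusted p = 0.0282). MSTRG.9494, over the gene Gm2808, was at 3.53, 2.40, 3.4, 1.76 and 1.70 FPKM and with QpE at 0, 0.166, 0.0728, 0.901 and 0.891 FPKM. It fell by 1.36 ± 0.24 (adjusted p = 0.0132), on a median of 8.33 read pairs in the controls and 0.447 with QpE.

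MSTRG.17837, the locus that begins in the Fgfrl1 promoter window shown above, overlaps the deposited span of Fgfrl1 on the opposite strand. It also overlaps an exon of Idua on the opposite strand. Its reads and those of the 2 genes cannot be told apart where they overlap. It was at 12.7, 13.2, 10.2, 13.9 and 10.1 FPKM in the controls and at 9.76, 8.26, 4.58, 5.82 and 4.34 FPKM with QpE. The groups did not overlap. It fell by 0.83 ± 0.20 (adjusted p = 0.0283), and Fgfrl1 fell by 0.55 (adjusted p = 0.0155). In the controls it had risen by 0.56 from 6 h to 24 h (adjusted p = 0.00170), when Fgfrl1 differed by 0.04. MSTRG.15848, 1280 bases past the 3′ end of Cdkn2b, a gene for an inhibitor of cyclin-dependent kinases, was at 3.48, 3.07, 3.11, 2.45 and 3.36 FPKM in the controls and at 1.75, 1.87, 1.70, 1.77 and 1.44 FPKM with QpE. It fell by 0.59 (adjusted p = 0.0137) beside a fall of 0.82 for Cdkn2b (adjusted p = 0.0214).

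At 2 loci the fall was not shared by the neighbour. MSTRG.19095, 235 bases past the end of the nucleotidase gene Nt5c3 on the same strand, was at 2.56, 3.43, 2.51, 2.39 and 2.65 FPKM in the controls and at 1.58, 1.60, 1.31, 1.79 and 1.63 FPKM with QpE. It fell by 0.52 (adjusted p = 0.0187) while Nt5c3 differed by 0.27, and the locus minus Nt5c3 differed by -0.78 (adjusted p = 0.0239). MSTRG.9484, a locus of 240 bases in an intron of Rsph3b, whose close paralog Rsph3a could share its reads, was at 63.3, 49.4, 63.2, 52.8 and 62 FPKM in the controls and at 25.3, 32.3, 36.2, 32.2 and 27.6 FPKM with QpE. It fell by 0.90 ± 0.12 (adjusted p = 0.00753), Rsph3b differed by 0.29, and their difference was -1.19 (adjusted p = 0.0142). This locus was listed at 0 in a control library of 6 h and a QpE library of 24 h whose groups were otherwise at 27.9 to 70.1 FPKM, and in the fit of all 6 groups the adjusted p was 0.508.

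**Figure D3:**
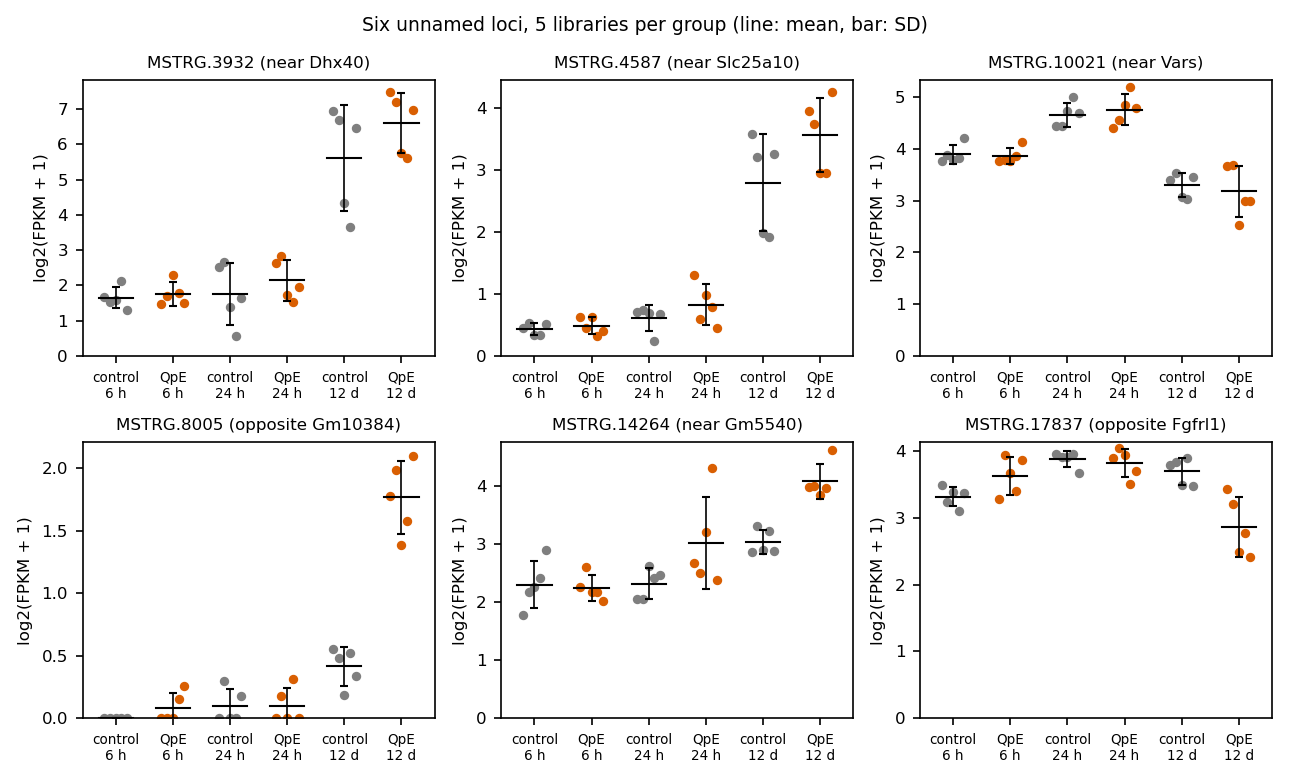
Level of 6 unnamed loci as log2(FPKM + 1) in the 5 libraries of each group (points), with the group mean (line) and SD (bar); grey is control and orange is QpE. MSTRG.3932 and MSTRG.4587 are high in both 12 day groups, with replicates 3 and 4 low, and MSTRG.8005 is high only in the 5 QpE libraries of 12 days.

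The calls with QpE at 12 days rested on few libraries. Leaving out 1 library at a time left 15 to 40 called loci; the count was 24, 15, 18 and 16 without control replicates 1, 2, 4 and 5, and 22 and 24 without QpE replicates 3 and 5. Without replicates 3 and 4 of both groups, an alternative chosen after seeing the data, 8 loci were called, beside 152 of all rows. Of the loci named above for this comparison, MSTRG.9484 kept its call without those replicates, as did MSTRG.8005, which the filter had selected. The block raised the count to 65 (28 higher, 37 lower), beside 2783 of all rows. With TPM scaling the median of all rows moved to -0.08, and 10 loci were higher and 36 lower.

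**Figure D4:**
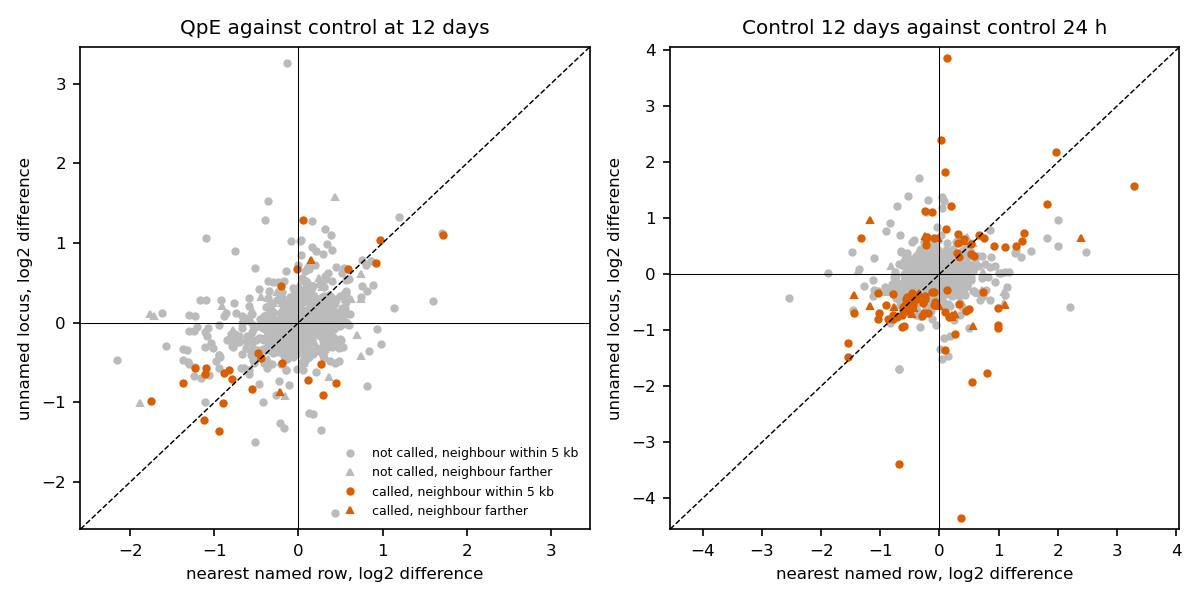
Log2 difference of each of 687 unnamed loci (vertical axis) against that of its nearest named row (horizontal axis), where that row passed the filter, for QpE against control at 12 days and for control 12 days against 24 h. Orange marks called loci, triangles mark neighbours over 5 kb away, and the dashed line marks equal differences. With QpE 22 of 28 called loci share the sign of the neighbour, and 74 of 104 over time. The 22 include MSTRG.22212, which the filter selected through its QpE libraries.

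The called loci were set beside their nearest named row. At 12 days with QpE, 28 of the 41 called loci had a nearest named row that passed the filter, and 22 of the 28 had its sign (78.6%). In 15 of the 28 the neighbour was called too, in the same direction each time (53.6%). Over all called rows with a tested named row within 5 kb the shares were 62.1% and 13.1%, and the difference between loci and rows was not tested. The 12 called loci of unknown strand within 5 kb of a gene all had their neighbour's sign, and 10 of those neighbours were called. Of the 12, 11 were on the 3′ side. MSTRG.22212, near Acsl1, is counted in the 12, the 28 and the 22. The filter selected it through its QpE libraries, so its direction and its shared sign are descriptions only. The test of the locus minus its neighbour took the nearest named row that passed the filter, at any distance. By it 7 of the 41 differed, 6 of 28 with that row within 5 kb and 1 of 13 with it farther away. That 1 of 13 is MSTRG.8005, which the filter selected through its QpE libraries. Its difference was fixed by the selection and is a description only. In all 43 of 1112 loci differed (3.87%), beside 7.78% of all rows paired in the same way. Of the 43, 23 were higher and 20 lower, beside 3.86% and 3.92%. That balance turned with the setting: 6 were higher and 12 lower with a pseudocount of 0.1, and 42 higher and 23 lower with the replicate block. These counts include pairs that share a neighbour: 190 of the 1117 loci share their nearest named row with another.

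The same was done for time in the controls. Between control 12 days and 24 h, 104 of the 175 called loci had a nearest named row that passed the filter, and 74 had its sign. The test of the difference again took the nearest named row that passed the filter, at any distance. By that test 77 of the 175 differed (191 of 1112 loci, 17.2%, beside 28.8% of all rows). These were 39 of 97 called loci with that row within 5 kb and 38 of 78 with it farther away. Among loci of unknown strand on the 3′ side, 37 of 257 were called (14.4%), and 21 of the 26 with a tested neighbour had its sign. On the 5′ side 18 of 72 were called (25%), and 4 of 11 had the neighbour's sign. Over all pairs of that kind the Pearson correlation of the differences was 0.36 across 197 loci on the 3′ side and -0.26 across 48 on the 5′ side; loci are not independent replicates, and both values of a pair come from the same libraries. Both correlations were positive with QpE at 12 days (0.39 and 0.21), and the difference between the sides was not tested. Beside 34% of all rows, loci divergent from a gene were called in 10 of 30 cases (33.3%), and those of unknown strand inside a gene in 17 of 191 (8.9%).

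The other promoter loci shown above gave smaller differences. MSTRG.8456, before Tbc1d22a, also overlaps the small nuclear RNA gene Gm22818 on its own strand. It was at 25.8, 20.6, 23.5, 21.4 and 22.4 FPKM in the 24 h controls and at 30.3, 27.3, 46.9, 40.1 and 23.6 FPKM at 12 days. The groups overlapped only at replicate 5 of 12 days and replicate 1 of 24 h, and the rise was 0.51 ± 0.17 (adjusted p = 0.0393), with Tbc1d22a at 0.01. Here replicates 3 and 4 were the highest of the 12 day controls. MSTRG.1545, which lies before Enah and overlaps its RefSeq span, rose by 0.53 from 6 h to 24 h in the controls (adjusted p = 0.0360), beside 0.46 for Enah. In the same step MSTRG.22591, which lies before Gcdh and overlaps the RefSeq noncoding gene Gm39213, rose by 0.63 (adjusted p = 0.0160), beside 0.02 for Gcdh. MSTRG.10366 begins 10 bases from the deposited span of Fbxl17 on the other strand and overlaps the RefSeq span of that gene. The locus was at 2.63, 3.03, 2.23, 2.80 and 3.66 FPKM in the 12 day controls. With QpE it was at 1.95, 1.73, 1.37, 1.97 and 1.60 FPKM. It fell by 0.50 (adjusted p = 0.0309), while Fbxl17, which encodes a substrate receptor of a ubiquitin ligase, differed by -0.20.

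Of 40 fat-cell genes 3 were the nearest named gene of an unnamed locus, of 42 matrix genes 4, and of 46 adipogenic regulators 2, where 8.61 unnamed loci were tested per 100 named rows. The distances ran up to 33787 bases, for Lox. MSTRG.8978, 1849 bases past the 3′ end of Adipoq, the adiponectin gene, was at 0.561, 0.738, 0.428, 0 and 0.544 FPKM in the 24 h controls and at 7.52, 5.93, 0.406, 1.56 and 5.70 FPKM at 12 days. The groups overlapped at replicate 3. It rose by 1.58 ± 0.46 (adjusted p = 0.0241), beside 3.28 for Adipoq, and the call was lost without any 1 of 4 libraries (log2 1.33 to 1.45). MSTRG.22315, 6288 bases past the lipoprotein lipase gene Lpl, rose by 0.65 (adjusted p = 0.0370), beside 2.39 for Lpl, and its call was lost in 11 settings. MSTRG.22212, past the acyl-CoA synthetase gene Acsl1, differed by 0.39 (adjusted p = 0.0973). It stood 0.75 higher with QpE at 12 days, a description only, since it passed the filter through those 5 libraries.

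Of the 4 matrix-gene loci, MSTRG.10964, nearest to the lysyl oxidase gene Lox, fell by 0.56 between control 24 h and 12 days (adjusted p = 0.0227), on a median of 1.45 read pairs at 24 h. The loci nearest to Col3a1, Col4a1 and Mmp2 were not called, with differences of -0.48, -0.07 and 0.69. Of the 2 regulator loci, MSTRG.772 near Twist2 fell by 0.33 (adjusted p = 0.0397), a call lost in 12 settings. MSTRG.8836 near Snai2 differed by -0.45 (adjusted p = 0.0874).

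The 6 most abundant loci were alike in form. MSTRG.13892 (chromosome 3, 2123 FPKM on average), MSTRG.9246 (chromosome 16, 1650 FPKM), MSTRG.4374 (chromosome 11, 725 FPKM), MSTRG.6080 (chromosome 13, 680 FPKM), MSTRG.19968 (chromosome 6, 492 FPKM) and MSTRG.21977 (chromosome 8, 457 FPKM) were single-exon loci of 281 to 568 bases without strand. None of the 6 was called with QpE at 12 days; their log2 differences ran from 0.12 to 0.44. Replicates 1 and 5 of QpE at 24 h were above all 28 other libraries at 4 of the 6. At MSTRG.9246 and MSTRG.4374 replicate 5 was not. MSTRG.13892 was at 5336 and 4344 FPKM in replicates 1 and 5 of QpE at 24 h and at 1087 to 3079 FPKM in the other 28 libraries. MSTRG.9246 was listed at 0 in replicate 2 of QpE at 6 h, with 957 to 1948 FPKM in the rest of that group.

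Of the 51 loci averaging 20 FPKM or more, 15 had both of these libraries above all 28 others, and all 15 were without strand (15 of 38, against 0 of 13 with a strand). None of the 1066 loci below 20 FPKM did so, and 29 of 12969 named rows did. One of those is AY036118, a named row at chromosome 17 whose sequence resembles ribosomal RNA, which was at 5915 and 9398 FPKM in the 2 libraries and at 930 to 2790 FPKM in the others. The part of ribosomal RNA in the abundant loci was not tested.

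**Figure D5:**
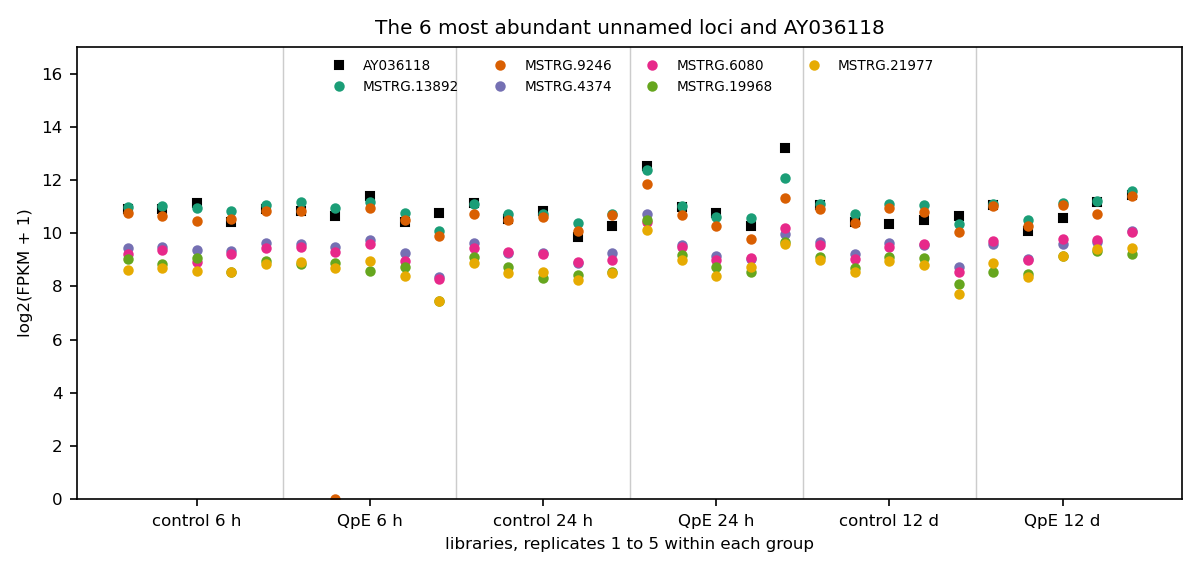
Level as log2(FPKM + 1) of the 6 most abundant unnamed loci (circles) and of AY036118 (squares) in each library, replicates 1 to 5 from left to right within a group. Replicates 1 and 5 of QpE at 24 h stand above the rest for MSTRG.13892, at 5336 and 4344 FPKM, and the point at 0 is MSTRG.9246 in replicate 2 of QpE at 6 h.

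Some loci were chosen for description after their values were seen. MSTRG.11485, of 98 transcripts opposite Ahnak on chromosome 19, was at 125, 127, 147, 137 and 122 FPKM in the 24 h controls and at 62.9, 48.7, 87.3, 107 and 52.2 FPKM at 12 days. It fell by 0.93 ± 0.20 (adjusted p = 0.00507), beside a fall of 0.60 for Ahnak, which encodes a giant scaffold protein (adjusted p = 0.0396). With QpE at 12 days it was at 32.7, 27.2, 71.4, 82.3 and 18.7 FPKM, a difference of -0.77 that was not called (adjusted p = 0.250; 0.0300 with the block). In both 12 day groups replicates 3 and 4 were highest, the reverse of their order for the fat-cell markers.

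MSTRG.8571 and MSTRG.8572, opposite the tubulin gene Tuba1b on chromosome 15, switched between near 0 and far higher levels within groups. MSTRG.8572 was at 38.4, 37.4, 10.4, 0.357 and 27.1 FPKM in the 24 h controls and at 0.335, 0.707, 0.423, 0.00945 and 0.633 FPKM at 12 days. It was called lower by 3.38 (adjusted p = 0.00953) although the groups overlapped. MSTRG.7809 lies 344 bases past the deposited span of Gpc6 and overlaps the RefSeq span of that gene. The locus was at 6.79, 0, 0, 0 and 0 FPKM in the 24 h controls. In all 5 QpE libraries of 24 h it was at 6.44 to 8.64 FPKM. It was not called, and the zeros are listed values that may be failed estimates.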

How the data were processed

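RNA from 30 cultures of 3T3-L1 was sequenced as paired reads after poly(A) selection with a directional kit, per the labels' protocols. The authors deposited FPKM per transcript in 1 table with coordinates; per the submitters' processing notes the tools were HISAT, HISAT2 and StringTie and the build GRCm38, with versions and strand settings not given in the sources used here. All sample columns were mapped to labels; 0 were unmapped. The authors' columns of some libraries contain 11 FPKM slightly below 0, so those deposited columns were classed as a score, and the 11 were replaced by 0.

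Transcripts were summed per gene, and 10567 of 16259 unnamed transcripts were joined to the only named gene of their locus. Rows at 1 FPKM in at least 5 libraries (14626 of 57490) were tested with limma 3.58.1 (R 4.3.3) as log2(FPKM + 1), with a mean-variance trend, on the compared groups only, two-sided, and called at a Benjamini-Hochberg adjusted p below 0.05. The spacing of low FPKM values gave an approximate depth per library, which allows no interval (range in the report). Fits were tested on simulated data: with QpE at 12 days 85.4% of unnamed loci changed by 2 log2 units were recovered, and 6.79% of calls were false. Matches to other genes were found with BLAST+ 2.17.0 in GENCODE M21 transcripts, promoter windows come from RefSeq (GRCm38), and tables were made with Python 3.11.15 and pandas 2.3.3.

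Whether equal replicate numbers mark paired libraries was checked from how their deviations from group means correlate. The 12 day values for replicates 1 to 5 were 0.19, 0.19, 0.33, 0.38 and 0.16; each exceeds 0.1, so the numbers are taken to pair those libraries; this comes from the data, not from the labels, and only 3 of 5 libraries correlated best with their own number. In each other comparison at least 1 value was below 0.1, so the numbers were not taken to pair. Yet 4 of 5 libraries correlated best with their own number for QpE at 6 h, and 3 of 5 for QpE at 24 h.

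Loci, lists and tests were chosen with earlier results of these data known. Named loci were the 6 largest rises and 6 largest falls with QpE at 12 days and the 5 of each in either control course among called loci with separate groups and at least 2 FPKM on average in the higher one, the 2 smallest p without calls, the 6 most abundant, and those nearest to listed genes (51 in all); others are said to be chosen after their values were seen, as are the promoter loci. Alternatives changed the samples in the fit, pseudocount, filter, scaling, trend, transcript choice, block and libraries.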

Additional observations from a re-analysis of the deposited data

Results flagged for a closer look

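In 306 groups of 5 libraries, over the 51 named loci and 6 groups, the highest or lowest library was compared with the other 4, and 20 stood apart by Dixon's ratio above 0.71. Chance marks about 1 in 20 such groups. In the 6 h controls, MSTRG.9484 was at 0 FPKM in replicate 2, where the other 4 were between 46.7 and 55.0 FPKM. MSTRG.6559 was at 1.56 FPKM in replicate 1, where the other 4 were between 3.02 and 3.83 FPKM. MSTRG.10021 was at 17.6 FPKM in replicate 5, where the other 4 were between 12.6 and 13.7 FPKM. MSTRG.17116 was at 1.35 FPKM in replicate 3, where the other 4 were between 0 and 0.230 FPKM. In the 24 h controls, MSTRG.17837 was at 11.7 FPKM in replicate 5, where the other 4 were between 14 and 14.6 FPKM. MSTRG.4587 was at 0.179 FPKM in replicate 4, where the other 4 were between 0.601 and 0.669 FPKM. MSTRG.21908 was at 3.42 FPKM in replicate 5, where the other 4 were between 0.878 and 1.39 FPKM.

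In the 12 day controls, MSTRG.9536 was at 1.26 FPKM in replicate 3, where the other 4 were between 2.90 and 3.45 FPKM. MSTRG.19095 was at 3.43 FPKM in replicate 2, where the other 4 were between 2.39 and 2.65 FPKM. MSTRG.19228 was at 5.18 FPKM in replicate 4, where the other 4 were between 8.86 and 10.1 FPKM. In the QpE libraries at 6 h, MSTRG.9246 was at 0 FPKM in replicate 2, where the other 4 were between 957 and 1948 FPKM. MSTRG.19968 was at 174 FPKM in replicate 5, where the other 4 were between 386 and 469 FPKM. MSTRG.22212 was at 0.0507 FPKM in replicate 3, where the other 4 were at 0.

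In the QpE libraries at 24 h, MSTRG.9484 was at 0 FPKM in replicate 1, where the other 4 were between 27.9 and 70.1 FPKM. MSTRG.6559 was at 0 FPKM in replicate 4, where the other 4 were between 0.703 and 1.08 FPKM. MSTRG.22315 was at 0.203 FPKM in replicate 2, where the other 4 were between 0.133 and 0.143 FPKM. In the QpE libraries at 12 days, MSTRG.14264 was at 23.3 FPKM in replicate 5, where the other 4 were between 13.4 and 14.9 FPKM. MSTRG.19851 was at 1.00 FPKM in replicate 1, where the other 4 were between 0 and 0.150 FPKM. MSTRG.10964 was at 1.49 FPKM in replicate 3, where the other 4 were between 0 and 0.223 FPKM. MSTRG.22664 was at 7.25 FPKM in replicate 4, where the other 4 were between 0 and 0.264 FPKM.

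The difference with QpE itself differed between 12 days and 24 h at 2 of the 1117 loci, 1 higher and 1 lower, beside 0.957% of all rows, tested as an interaction in limma over the 4 groups. MSTRG.8005 differed by 1.35 on the log2 scale, but it passed the filter only through the QpE libraries of 12 days, so this difference was fixed by the selection and stands as a description. MSTRG.23049, near Coa6, differed by -1.01 ± 0.22 (SE; adjusted p = 0.0385), with a log2 difference of 0.57 at 24 h and -0.43 at 12 days.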

How the results depend on the processing

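With QpE at 12 days, 41 unnamed loci were called (14 higher, 27 lower). The counts were 99 (36 higher, 63 lower) with all 6 groups in 1 fit, 65 (28 higher) with the replicate block, 14 (4 higher, 10 lower) with no filter on low values, 14 (4 higher, 10 lower) with the most abundant transcript only, and 8 (4 higher, 4 lower) without replicates 3 and 4 of both groups, a setting chosen after seeing the data. For control 24 h against 6 h (59 higher, 40 lower) they were 49 (29 higher, 20 lower) with no filter, 48 (26 higher, 22 lower) with the most abundant transcript only, and 26 lower when loci needed 1 FPKM in 10 libraries, which 678 loci reached. For control 12 days against 24 h (74 higher) they were 100 (30 higher) with no filter, 106 (29 higher) at 10 libraries, and 116 (44 higher) with the most abundant transcript only. Fewer rows were tested at 10 libraries and more with no filter; for these and the other settings the cause was not tested. With median-ratio scaling 80 were higher and 80 lower in that comparison, and 50.6% of called rows in all were higher, beside 38.6% without it. With TPM scaling at QpE 12 days, 25.6% of called rows were higher, beside 41.4%. With QpE at 12 days 43 loci differed from their nearest named locus, with MSTRG.8005, which the filter selected, among them. The count was 18 (6 higher, 12 lower) with a pseudocount of 0.1 and 65 (42 higher, 23 lower) with the replicate block.

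Leaving out 1 library at a time gave 15 to 40 called loci for QpE at 12 days (4 to 12 higher, 11 to 29 lower), and 0 to 1 for QpE at 24 h. For control 24 h against 6 h it gave 67 to 105 (38 to 68 higher, 26 to 37 lower), lowest for rises without control replicate 2 and for falls without control replicate 3 of 24 h. For control 12 days against 24 h it gave 130 to 174 (43 to 79 higher); rises were 49 and 43 without control replicates 3 and 4 of 24 h, and 49 and 46 without control replicates 2 and 5 of 12 days.

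With a bound of 2 kb in place of 5 kb, 9 loci were convergent. With the nearest named row limited to rows that passed the filter, 5 loci had none, 444 were over the bound away, 32 overlapped on the same strand and 102 overlapped without strand. Of 36 calls at named loci, 17 stayed past the threshold under every alternative that tested them and 19 were lost under at least 1; the 17 include MSTRG.8005, which the filter selected through its high group. MSTRG.17878 reversed, with a difference of -0.011 between control 24 h and 6 h when only its most abundant transcript was used. At 12 days the replicate numbers are taken to pair the libraries, which comes from these data and is not established by the labels. There the block brought 6 described loci past the threshold with QpE: MSTRG.4587 (limma adjusted p = 0.0196), MSTRG.11485 (0.0300), MSTRG.16737 (0.0330), MSTRG.8978 (0.0348), MSTRG.3932 (0.0355) and MSTRG.17878 (0.0363). In the other comparisons the samples are taken to share only a number (lowest correlation 0.0431 for QpE at 6 h, where 4 of 5 libraries correlated best with their own number, and 0.0381 at 24 h). There the block gave 84 called loci for control 24 h against 6 h, 154 for control 12 days against 24 h, and 0 for QpE at 6 h and at 24 h. It ended the calls of MSTRG.23049 (adjusted p = 0.0851) and MSTRG.22591 (0.0568) for control 24 h against 6 h, and MSTRG.772 (0.0914) and MSTRG.23049 (0.0977) for control 12 days against 24 h. It changed no other call at a described locus. Depth limits most loci, since 648 of 1117 had a median over libraries under 10 read pairs, as estimated.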
